A study of Capsicum annuum with 6 samples.

Results

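The start of chromosome 7 of pepper (Capsicum annuum), around the gene of a receptor-like kinase acting on serine and threonine that a genome-wide association study (GWAS) of the first branch angle (FBA) had put forward, was examined gene by gene in the branch site transcriptome. The genes were taken by position alone, as every listed gene with a cv.59 identifier from Capann_59Chr07g000010 to Capann_59Chr07g002410. These are 99 of the 24829 genes with deposited values, and the candidate itself, Capann_59Chr07g001410, is the 50th of them in identifier order. Identifiers of this annotation run in steps of 10, so the range holds 241 possible identifiers, and the 142 others were not analysed here. Every listed gene of the series had at least 87 counts in total, so genes that are nearly silent in this tissue are not among the 99.

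RNA came from the tissue at the first fork of the stem (the first branch site), sampled at the early flowering stage. Compact accession B010, whose branches stand at a small angle, and loose accession B003, whose branches spread at a large one, are natural accessions that carry no transgene and received no treatment, and each is represented by 3 biological replicates pooled from several plants. The accessions differ across the whole genome, so a difference at any gene of the region cannot be told apart from the effects of their other differences. The sources used here name only a few cv.59 identifiers, none of them a neighbour of the candidate, so the neighbours are given by identifier and the tissue was not checked against marker genes. For the same association, listed under its FarmCPU model only, the study also named genes of a MYB36 transcription factor and a PTI1-like kinase. Their cv.59 identifiers were not found in these sources, so whether they are among the neighbours is not known.

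Receptor-like kinases are plant proteins that pass signals from the cell surface into the cell. An outer part that can bind a ligand is joined through the membrane to a kinase that phosphorylates serine and threonine residues of other proteins. Members of this large family act in brassinosteroid perception, in meristem size, in cell expansion and in defence. A GWAS signal marks a stretch of chromosome and not a gene, since neighbouring variants are inherited together, and the expression of all genes of the stretch is one of the measurements used to tell its genes apart.

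The candidate is defined in these data by its identifier, and the study lists a primer pair with which it measured the gene in quantitative PCR. The pair is shown as the study's own choice for this gene, and it was not matched to cv.59 sequences here. It is written 5′ to 3′ in lower case with no part singled out.
Forward primer: cccaatggcactctctcttctgc
Reverse primer: tctgaggctcatggtcttgtcc
The forward primer has 23 bases and the reverse primer 22 bases. Promoter and protein sequences of the cv.59 genes were not used here.

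The transcript of Capann_59Chr07g001410 had 62, 58 and 63 counts in replicates 1, 2 and 3 of B010, against 98, 341 and 366 counts in the same order in B003. As counts per 1000000 counts of the library, scaled by TMM (CPM), these are 1.31, 2.103 and 1.86 in B010 and 2.49, 11.0 and 11.9 in B003. All B003 libraries lay above all B010 libraries, but B003 replicate 1 lay next to the B010 libraries and far below the others of its own accession. The mean level was 1.76 ± 0.408 CPM in B010, against 8.48 ± 5.20 CPM in B003 (SD, n = 3 each). In whole branch sites, fewer cells of a type and less RNA per cell cannot be told apart. With log2 fold changes given as B010 over B003, so that negative values mean a higher level in B003, the candidate was at -2.27 (standard error, SE, 0.61, edgeR quasi-likelihood adjusted p = 0.0305). Differentially expressed genes (DEGs) had to pass 0.05 in adjusted p and to reach 1 in log2 fold change, up or down, and the candidate was one of them. The study had picked it from the GWAS candidates partly for its difference in these same libraries, so the call is not independent evidence. By quantitative PCR, the study also reported the gene as significantly higher in the loose accession, the same direction as here. Those PCR measurements were not re-analysed. Of the 6 fits with a library left out, the call was kept only in that without B003 replicate 1 (log2 fold change -2.71, edgeR adjusted p = 0.00251). Without B010 replicate 1, 2 or 3 the edgeR adjusted p was 0.110, 0.0750 and 0.0610, and without B003 replicate 2 or 3 it was 0.0908 and 0.0918.

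Among the genes of the region, the candidate was a weakly expressed one with a difference of middling size. Levels of different genes were compared in FPKM, a count scaled to exon length and library depth. The candidate lay at 0.724 ± 0.164 FPKM in B010, against 3.40 ± 2.01 FPKM for B003 (SD, n = 3), where the median gene of the region had 5.93 and 6.72 FPKM. By level it ranked 87th of 99 in B010 and 70th of 99 in B003, counted from the highest. By the size of the log2 fold change it ranked 38th of the 98 genes tested, and by p it ranked 47th. Beside the whole series the place was higher. Its log2 fold change was larger in size than that of 87.8% of all 24738 genes tested, and its p was smaller than that of 69.5%. Of the other genes of the region, 33 were called with a larger log2 fold change in either direction, and 17 of these were higher in B003 as the candidate was. Within the region, the measure on which it ranked high was the spread between replicates of B003, with an SD of 1.26 in log2 CPM. There it was 7th of 99 and above 95.1% of all listed genes. In B010 its SD of 0.35 was close to the median of the region, also 0.35.

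**Figure D1:**
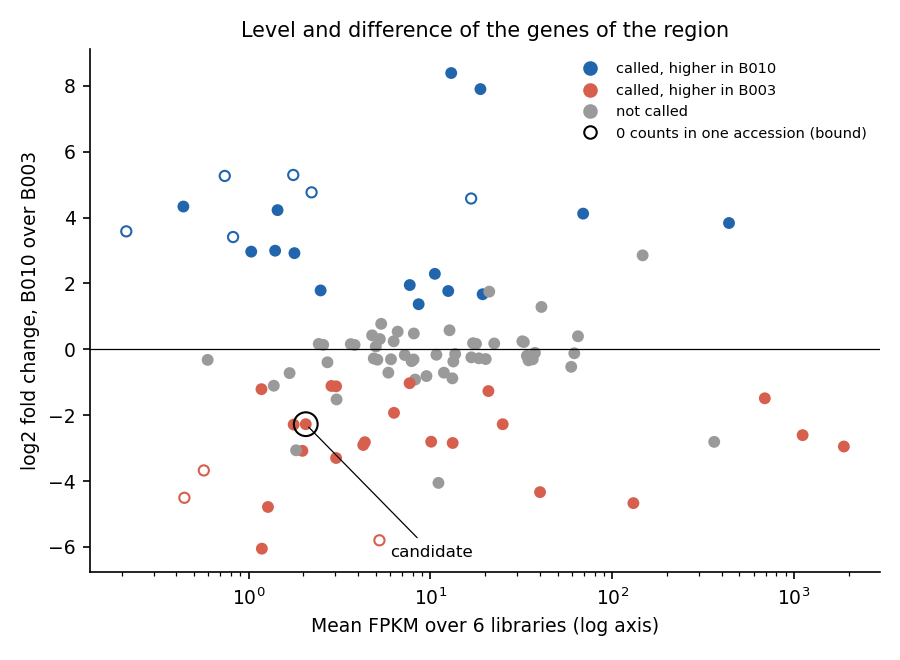
Mean FPKM over the 6 libraries (log axis) against the log2 fold change of B010 over B003 for the 98 genes tested, one point per gene, coloured by call. Open points had 0 counts in one accession and are drawn at their lower bound. The circled candidate, at 2.06 FPKM and -2.27, lies within the cloud of genes called higher in B003.

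The nearest genes were examined next, as the 10 listed genes on either side of the candidate in identifier order. Of these 20 genes, 19 passed the expression filter, and 6 were DEGs, 1 higher in B010 and 5 higher in B003. This is 31.6% of those tested, beside 25.3% of all genes tested in the series. The genes directly beside the candidate were all lower in B010 on average, though some only slightly. Each of the 10 nearest, 5 on either side, had a negative log2 fold change, as had 12272 of the 24738 genes tested in the series. The smallest in size was -0.12. Of these 10, 4 were called, or 40% beside 25.3% of all genes tested. The median log2 fold change of the 20 was -0.72, beside 0.01 over all genes tested. In the direction of the candidate, 5 of 19 were called, or 26.3% beside 12.8% of all genes tested. Of these 5, Capann_59Chr07g001350 had practically the same log2 fold change as the candidate (-2.275 against -2.274), and each of the others had a larger one.

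**Figure D2:**
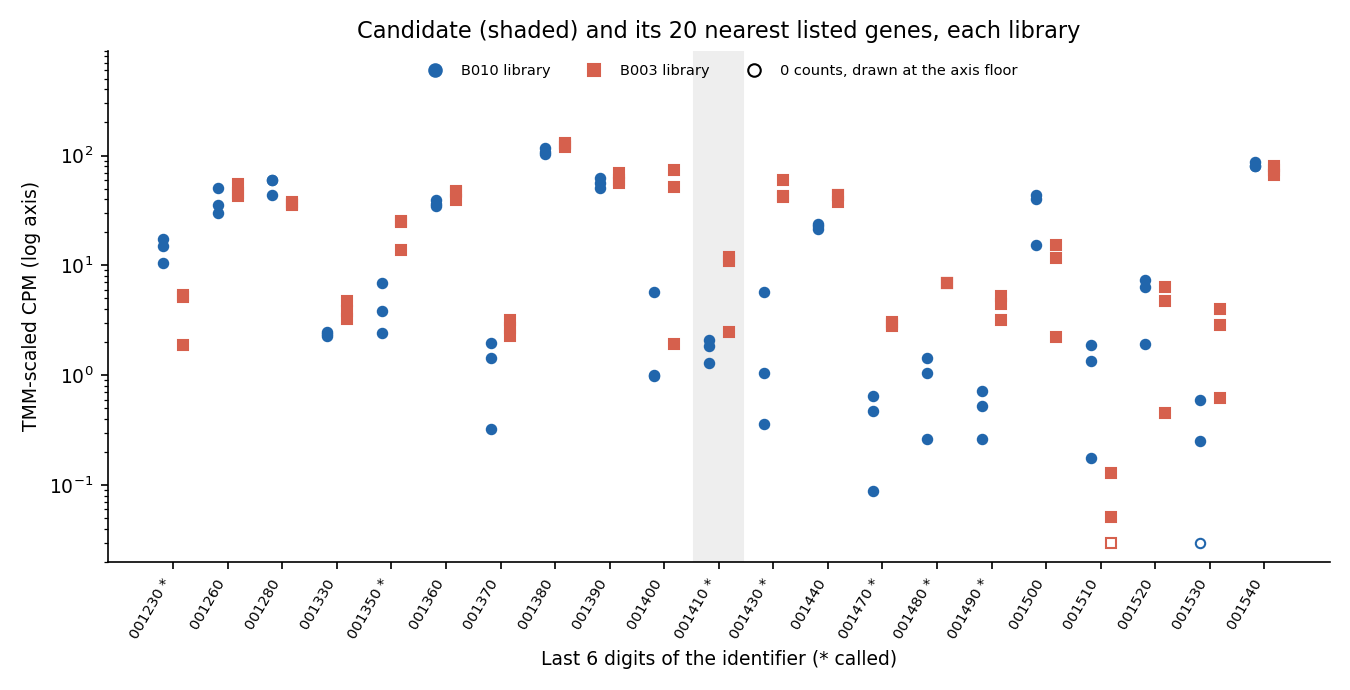
TMM-scaled CPM (log axis) of the candidate (shaded) and its 20 nearest listed genes in each library, with circles for B010, squares for B003, open symbols for 0 counts and asterisks for called genes. The B003 squares of the candidate split into one library at 2.49 CPM and a pair at 11.0 and 11.9 CPM, and the gene listed before it splits in the same way.

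Capann_59Chr07g001400, listed directly before the candidate, had the same uneven pattern in B003 on a larger scale. Its level was 1.01, 0.979 and 5.72 CPM in the B010 libraries and 1.93, 52.2 and 74.2 CPM in the B003 libraries. B003 replicate 1 lay inside the range of B010, so that the accessions overlapped. The log2 fold change of -4.06 (SE 1.40) was not called, with an edgeR adjusted p of 0.0634, whereas it was called without B003 replicate 1 (log2 fold change -4.62, edgeR adjusted p = 0.0149) and by the Wald test of DESeq2 (adjusted p = 0.00128). The ratio of its FPKM to that of the candidate was 0.932, 0.569 and 3.78 in B010 and 0.943, 5.78 and 7.58 in B003, so the levels of both genes were not in a fixed proportion. Whether reads of one were counted on the other was not tested. In the series as a whole, B003 replicate 1 was below 1/2 of both other B003 libraries for 7.05% of the genes listed. In the region this held for 8 of 99 genes, and among the candidate and its 20 neighbours for 3, namely the candidate, Capann_59Chr07g001400 and Capann_59Chr07g001230.

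On the other side, Capann_59Chr07g001430 was clearly split between the accessions. It had 1.05, 0.363 and 5.72 CPM in the B010 libraries and 42.1, 43.0 and 59.5 CPM in those of B003. Unlike at the candidate, the level in B003 replicate 1 was close to that in replicate 2. The log2 fold change was -4.34 (SE 0.97, edgeR adjusted p = 0.0179). The adjusted p moved just past the threshold without B010 replicate 1, B003 replicate 2 or B003 replicate 3, to 0.0715, 0.0502 and 0.0542 in edgeR.

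Another 3 listed genes in a row, Capann_59Chr07g001470, Capann_59Chr07g001480 and Capann_59Chr07g001490, were low in B010 and several times higher in B003. Capann_59Chr07g001470 had 0.653, 0.471 and 0.0885 CPM in B010 and 2.80, 2.94 and 3.03 CPM in B003 (log2 fold change -2.82, SE 0.60, edgeR adjusted p = 0.0160). Capann_59Chr07g001480 had 1.05, 1.45 and 0.265 CPM in B010 and 6.95, 6.89 and 6.87 CPM in B003 (log2 fold change -2.90, SE 0.56, edgeR adjusted p = 0.0115). In both genes the B003 libraries agreed closely, whereas B010 replicate 3 stood below the others of its accession. Capann_59Chr07g001490 had 0.527, 0.725 and 0.265 CPM in B010 and 3.18, 4.43 and 5.24 CPM in B003, a log2 fold change of -3.08 (SE 0.42, edgeR adjusted p = 0.00411). It was the only one of the 6 called neighbours whose call held with each library left out in turn. Capann_59Chr07g001480 lost its call without B010 replicate 1 (edgeR adjusted p = 0.0515), and Capann_59Chr07g001470 without B010 replicate 2, B003 replicate 2 or B003 replicate 3 (edgeR adjusted p from 0.0508 to 0.0524).

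Before the candidate, 2 of the 10 genes were called, in opposite directions. Capann_59Chr07g001350 had 3.88, 2.43 and 6.87 CPM in B010 and 13.8, 24.9 and 25.3 CPM in B003. Its log2 fold change of -2.28 (SE 0.45, edgeR adjusted p = 0.0123) was close to that of the candidate, at a higher level of 25.0 FPKM over the 6 libraries, and the call was lost only without B010 replicate 1 (edgeR adjusted p = 0.0580). Capann_59Chr07g001230 was the neighbour called higher in B010, with 17.2, 15.1 and 10.5 CPM there and 1.88, 5.14 and 5.43 CPM in B003 (log2 fold change 1.79, SE 0.44, edgeR adjusted p = 0.0234). With a library left out, that call was lost without B010 replicate 1 or 2 or B003 replicate 2 or 3, with edgeR adjusted p from 0.0504 to 0.0798.

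The remaining neighbours differed little or unevenly. Capann_59Chr07g001440 had 23.9, 21.3 and 22.8 CPM in B010 and 37.7, 43.6 and 44.0 CPM in B003. The groups lay well apart and the edgeR adjusted p was 0.00382, but the log2 fold change of -0.88 did not reach the limit of 1. Capann_59Chr07g001380 and Capann_59Chr07g001390 were among the steadier genes, with 31.8 ± 2.73 against 36.0 ± 0.868 FPKM and 59.5 ± 0.345 against 64.1 ± 4.76 FPKM for B010 against B003 (SD, n = 3). Their log2 fold changes were -0.20 and -0.12, and neither passed the test. At the far end, Capann_59Chr07g001500, Capann_59Chr07g001510 and Capann_59Chr07g001520 shared a drop in replicate 3 of both accessions. Capann_59Chr07g001500 had 40.1, 43.4 and 15.3 CPM in B010 and 11.6, 15.5 and 2.25 CPM in B003, with an edgeR adjusted p of 0.105, and it was called by DESeq2 (adjusted p = 0.0329). Capann_59Chr07g001520 had 7.29, 6.38 and 1.92 CPM in B010 and 6.41, 4.72 and 0.456 CPM in B003. Capann_59Chr07g001510 was the one gene of the region that did not pass the filter, with 89, 37 and 6 counts in B010 and 2, 4 and 0 in B003. Capann_59Chr07g001530 was also uneven, at 2.87, 0.614 and 3.97 CPM in B003 and at most 0.590 CPM in B010, and was not called by edgeR (adjusted p = 0.0741) but was by DESeq2 (adjusted p = 0.0205). The 6 other neighbours, Capann_59Chr07g001260, Capann_59Chr07g001280, Capann_59Chr07g001330, Capann_59Chr07g001360, Capann_59Chr07g001370 and Capann_59Chr07g001540, had log2 fold changes from -1.11 to 0.58 and none was called.

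Whether the candidate differed from its neighbours was asked in one value per library, its log2 CPM minus the median log2 CPM of the 20 nearest genes. The values were -2.002, -0.90 and -1.74 in B010 replicates 1, 2 and 3 and -1.84, -0.83 and -0.15 in B003 replicates 1, 2 and 3. The accessions overlapped, since B003 replicate 1 was lower than all but one of the B010 libraries. The mean was -1.55 ± 0.58 in B010 and -0.94 ± 0.85 in B003 (SD, n = 3), a difference of -0.61 with p = 0.4 in the exact two-sided permutation test, which cannot go below 0.1 with 3 libraries against 3. The median level of the neighbours, averaged over the libraries, lay at 2.35 log2 CPM in B010 and 3.73 in B003. That is a difference of -1.38 in the direction of the candidate. This median can fall on a different gene in each library, so it is not the change of any single neighbour. The median of the neighbours' own log2 fold changes was -0.72. Which neighbours were taken decided the sign of this measure of levels. Against the 10 nearest genes the difference was 1.95 (exact permutation p = 0.1), and against all other 98 genes of the region it was -1.93 (exact permutation p = 0.1). Gene by gene, the median log2 fold change was -1.96 for the 10 nearest and -0.24 for all other genes tested in the region. The candidate, at -2.27, was more negative than either.

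Across the whole region, 46 of the 98 genes tested were DEGs, or 46.9%, beside 25.3% of all genes tested and 24.7% of those on the rest of chromosome 7. In the direction of B010 there were 21, or 21.4% beside 12.5% of all genes tested, and in the direction of B003 there were 25, or 25.5% beside 12.8%. No library of one accession overlapped the other accession in 65 of the 98 genes, or 66.3%, beside 54.4% of all genes tested. The median log2 fold change was -0.26, beside 0.01 over all genes tested, and its median size without sign was 1.24 beside 0.57. These are descriptions of one stretch of neighbouring genes, and no test of the region against other stretches was made. Without B010 replicate 1, the number of DEGs in the region was 31 of 98, beside 14.6% of all genes tested in that fit, and the number higher in B003 fell from 25 to 15.

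**Figure D3:**
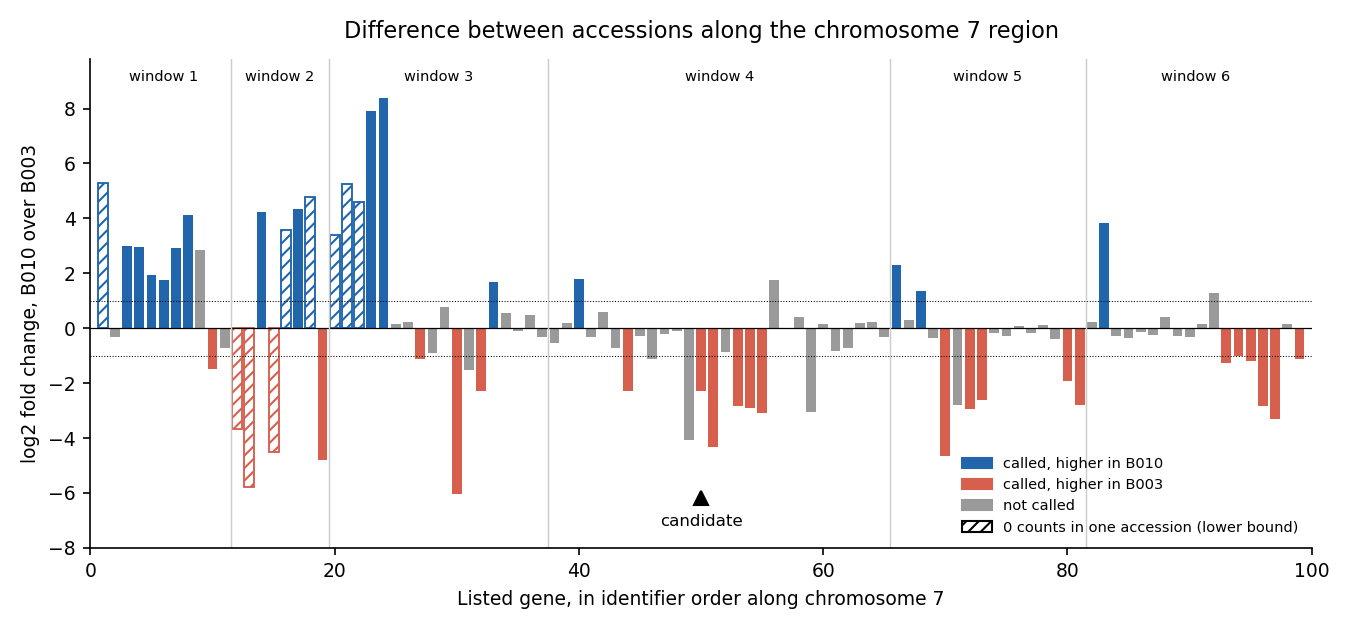
Log2 fold change of B010 over B003 for the listed genes in identifier order, with blue and red bars for genes called higher in B010 and B003, grey bars for genes not called, dotted lines at the limit of 1 and vertical lines between windows. Hatched bars are lower bounds for genes with 0 counts in one accession, and they lie in windows 1 to 3, away from the candidate in window 4.

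The DEGs were not spread evenly. The identifiers were divided into 5 windows of 40 and a last one of 41. In the first window, 8 of 11 genes tested were DEGs, 7 of them higher in B010. Among these 7, Capann_59Chr07g000140, Capann_59Chr07g000290 and Capann_59Chr07g000310 each lost the call in 5 of the 6 fits with a library left out. The accessions overlapped at Capann_59Chr07g000140 and Capann_59Chr07g000310. In the second window all 8 genes were called, 4 in each direction. The third window held 9 DEGs among 18 genes, with 6 higher in B010. The window of the candidate, the fourth, had the lowest share of the region, 7 of 27 or 25.9%, which is close to the 25.3% of all genes tested. In the fifth and sixth windows, 7 of 16 and 7 of 18 genes were called. Listed genes were also sparse at the chromosome start, with 11 and 8 of 40 identifiers in the first and second windows against 28 of 40 in the fourth.

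**Figure D4:**
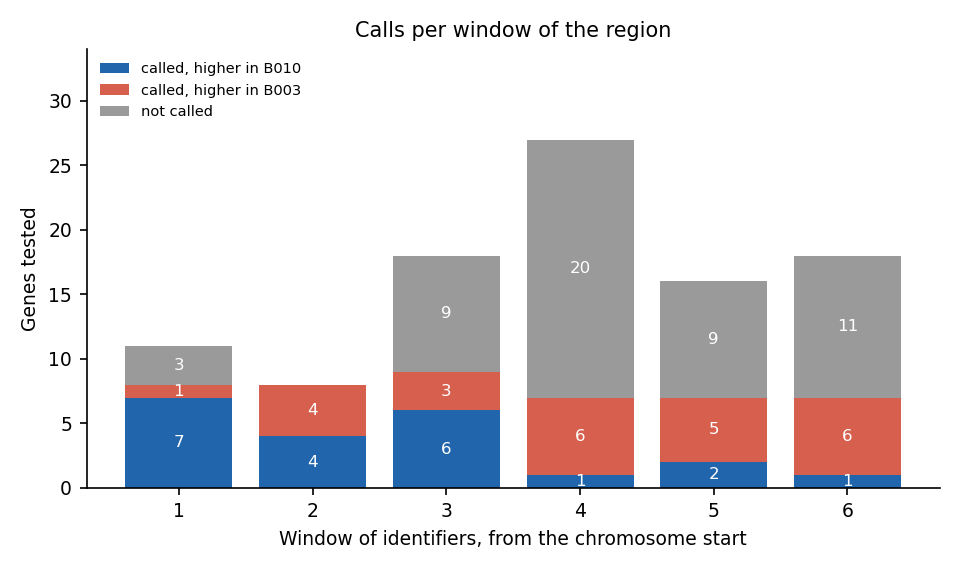
Number of genes tested in each window of identifiers, split into genes called higher in B010 (blue), called higher in B003 (red) and not called (grey). Window 2 has no uncalled gene, whereas 20 of 27 genes in window 4, which holds the candidate, were not called.

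The genes were also divided at Capann_59Chr07g001000, a line that was chosen after the values were seen. Before it, 21 of 24 genes were DEGs, or 87.5% beside 25.3% of all genes tested, with 16 higher in B010 and 5 higher in B003. After it, 25 of 74 genes tested were, or 33.8%, which is nearer to the 25.3% of all genes. Of these, 5 were higher in B010, or 6.76% beside 12.5% of all genes tested, and 20 were higher in B003, or 27.0% beside 12.8%. The genes before the line had a median level of 1.77 FPKM, beside 8.61 FPKM after it. Leaving out each library in turn, the DEGs before the line numbered from 18 to 22, whereas those after it ran from 13 without B010 replicate 1 to 28 without B010 replicate 3. The share of all genes called moved in the same way, from 14.6% without B010 replicate 1 to 28.1% without B010 replicate 3.

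The DEGs of the chromosome start included genes with transcripts detected in one accession only, defined as at least 10 counts in each of its libraries and at most 3 in each library of the other. In the region 11 of 99 genes met this, or 11.1%, beside 2.46% of all listed genes. All genes of the region have cv.59 identifiers, and among all listed genes with such identifiers the share was 1.32%. By accession these were 6 genes detected in B010 only, beside 1.38% of all listed genes, and 5 in B003 only, beside 1.08%. A gene with no counts can be silent or can carry a sequence that reads of that accession do not align to, and these cannot be told apart from counts. Where none was counted, up to 3 counts may have been missed, which is between 0.0632 and 0.109 CPM in the 6 libraries, and folds against a group with no counts are given as lower bounds against it, averaged over the libraries of that group. These limits and intervals cover counting error only.

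The genes detected in B010 only had 0 counts in every B003 library. Capann_59Chr07g000020, the first listed gene of the chromosome, had 160, 73 and 156 counts in B010, at least 39.2-fold above the limit. Capann_59Chr07g000920 had 147, 112 and 110 counts, at least 38.4-fold above it. Neither had a measurable level in B003. For Capann_59Chr07g000690, Capann_59Chr07g000760, Capann_59Chr07g000840 and Capann_59Chr07g000970 the mean in B010 was between 0.959 and 2.45 CPM, and the lower bounds were 12.0-fold, 27.2-fold, 10.6-fold and 23.9-fold. The exon length implied by counts and FPKM is only 64.6 bases for Capann_59Chr07g000970, so that its 33.5 FPKM in B010 overstates it beside longer genes.

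Among the genes detected in B003 only, Capann_59Chr07g000510 had 195, 141 and 153 counts in B003 and none in any B010 library, at least 55.7-fold above the limit. Capann_59Chr07g000420 and Capann_59Chr07g000630 also had no counts in B010, with 1.11 ± 0.315 and 1.97 ± 0.486 CPM (SD, n = 3) in B003 and lower bounds of 12.8-fold and 22.8-fold. Capann_59Chr07g000770 had 2, 3 and 1 counts in B010 and 82, 36 and 52 in B003, a ratio of 30.6 with an exact 95% counting interval from 13.8 to 84.5. Capann_59Chr07g001090, the one gene of this kind past the dividing line, had 2, 0 and 2 counts in B010 and 84, 63 and 115 in B003, a ratio of 70.7 with an interval from 27.3 to 261. Genes detected in B010 only and in B003 only followed each other in short runs along the start of the chromosome: from Capann_59Chr07g000690 to Capann_59Chr07g000840, for example, 3 genes of the first kind enclosed Capann_59Chr07g000770 of the second.

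**Figure D5:**
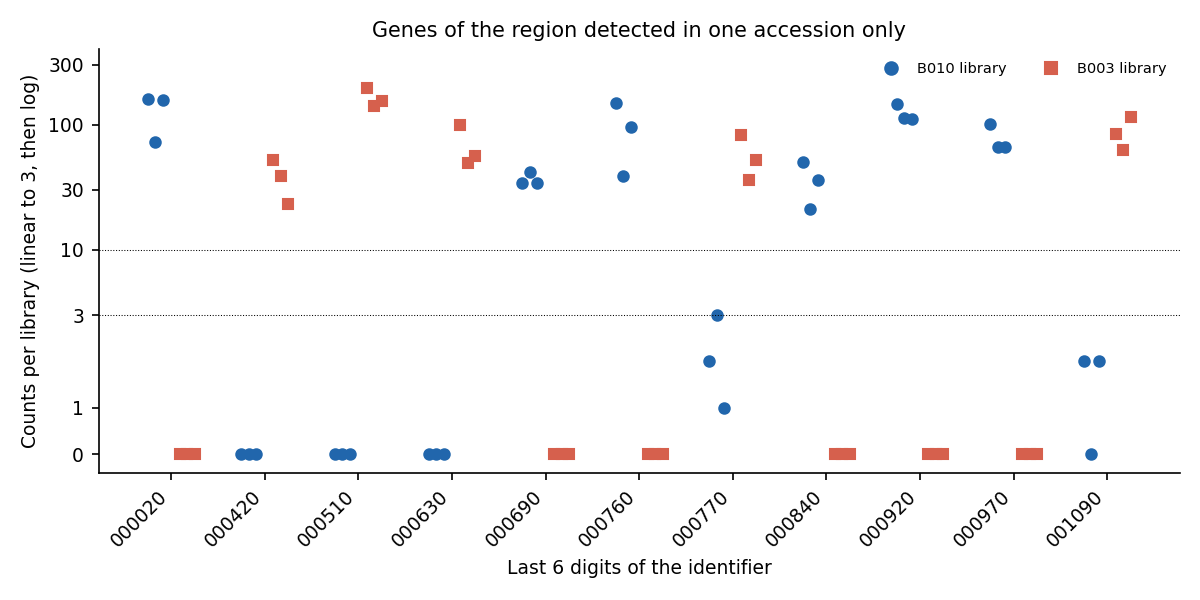
Counts per library (linear up to 3, logarithmic above) of the 11 genes detected in one accession only, with circles for B010, squares for B003 and dotted lines at the limits of 3 and 10 counts. The genes run in identifier order, and the accession with counts changes several times along it.

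By p, the 5 leading genes higher in B010 were Capann_59Chr07g000980, Capann_59Chr07g000990, Capann_59Chr07g000920, Capann_59Chr07g000970 and Capann_59Chr07g000020, all at the chromosome start. Capann_59Chr07g000980 had 23.7, 21.6 and 21.6 CPM in B010 and 0.0509, 0.129 and 0.0976 CPM in B003 (log2 fold change 7.90, SE 0.29, edgeR adjusted p = 0.000657). Its neighbour Capann_59Chr07g000990 had 855, 412 and 662 counts in B010, against 4, 1 and 0 in B003 (log2 fold change 8.39, SE 0.58, edgeR adjusted p = 0.000871). Both genes reached a moderate level in compact accession B010, 37.6 ± 4.26 and 26.0 ± 6.11 FPKM (SD, n = 3), and traces in loose accession B003. From the summed counts, the exact 95% counting interval of the ratio was 133 to 554 for Capann_59Chr07g000980 and 153 to 1102 for Capann_59Chr07g000990. The listed genes directly before this pair, Capann_59Chr07g000920 and Capann_59Chr07g000970, were also higher in B010 and were detected there only. The genes after the pair behaved otherwise: Capann_59Chr07g001010 and Capann_59Chr07g001020, the following listed genes, had log2 fold changes of 0.16 and 0.24 and were not called.

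Toward B003, the 5 genes with the smallest p were Capann_59Chr07g000510, Capann_59Chr07g001820, Capann_59Chr07g001090, Capann_59Chr07g000770 and Capann_59Chr07g001830. Of these, 2 were also the most abundant of the region per length. Capann_59Chr07g001820 had 309, 391 and 629 FPKM in B010, against 2733, 3620.03 and 3587 FPKM for B003 (log2 fold change -2.95, SE 0.30, edgeR adjusted p = 0.00186). Capann_59Chr07g001830, the next identifier, had 247, 241 and 489.8 FPKM in B010, against 1580.3, 2000.1 and 2127 FPKM for B003 (log2 fold change -2.61, SE 0.30, edgeR adjusted p = 0.00251). The libraries of both accessions lay far apart in both genes. Their implied exon lengths were 180.4 bases each, within the tolerance of 1% used to mark possible copies, so that reads could be split between them and the FPKM of such short genes runs high. The same limit on length held for the pairs Capann_59Chr07g000070 and Capann_59Chr07g000130 and Capann_59Chr07g000310 and Capann_59Chr07g000320. Lengths were compared in this way only between consecutive listed genes, and no sequences were compared.

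The other genes among the 5 most abundant were Capann_59Chr07g000340, Capann_59Chr07g002240 and Capann_59Chr07g001810. Capann_59Chr07g000340 was expressed at 258, 340.5 and 515 FPKM in B010, against 847, 1106 and 1075 FPKM for B003 (log2 fold change -1.49, SE 0.26, edgeR adjusted p = 0.00913). Its implied exon length of 180.7 bases was short as well, and close to those of Capann_59Chr07g001820 and Capann_59Chr07g001830. Capann_59Chr07g002240, of 1883 bases by the same measure, was the abundant gene of the region that was higher in B010. It had 1836, 2198 and 697 CPM in B010 and 96.2, 157 and 78.9 CPM in B003, a log2 fold change of 3.83 (SE 0.54, edgeR adjusted p = 0.00450). Even B010 replicate 3, the lowest of its accession, lay far above the highest B003 library. Capann_59Chr07g001810 had 78.1, 157 and 16.3 CPM in B010 and 1121, 409 and 236 CPM in B003. The groups did not overlap, but the spread within them was wide and the log2 fold change of -2.81 (SE 0.95) was not called, with an edgeR adjusted p of 0.0603. It was called by DESeq2 (adjusted p = 0.00297) and by limma on log2(FPKM + 1) and log2(FPKM + 0.1) (adjusted p = 0.0416 and 0.0424).

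Replicates differed more in this region than the medians show. B010 replicate 3 was below 1/2 of both other B010 libraries for 20 of the 99 genes, or 20.2%, beside 8.20% of all listed genes. Of the 20 genes nearest to the candidate, 6 showed this, all of them between Capann_59Chr07g001470 and Capann_59Chr07g001530, whereas the candidate itself was even across the B010 libraries. B003 replicate 3 was below 1/2 of both others for 7 of the 99 genes, or 7.07%, beside 1.98% of all listed genes. Among the 20 it was so for 3, of which Capann_59Chr07g001510 had only 2, 4 and 0 counts in B003. Of the 46 DEGs of the region, 30 stayed called whichever library was removed, 16 of the 21 higher in B010 and 14 of the 25 higher in B003. The candidate was not among these 30. The same count was not made for all DEGs of the series, so it is not a trait of the region. With a library left out, the share of all genes called ran from 14.6% to 28.1%, beside 25.3% with all libraries.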

How the data were processed

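The values of 6 libraries, 3 of B010 and 3 of B003, were assigned by the names that the deposited table itself explains. The counts deposited by the authors are raw whole numbers per gene, obtained after filtering of paired reads and alignment to the cv.59 genome with HISAT2. StringTie is also named in the submitters' processing notes, and the counting program, the use of strand and the handling of reads with several alignments are not given in the sources used here. The FPKM values deposited by the authors are scaled to exon length and mapped reads, but the lengths and totals used are not given in the sources used here. At a few counts they did not follow a fixed length per gene. Capann_59Chr07g000990, for example, had 4 counts and 0.133 FPKM in B003 replicate 1, but 1 count and 0.00812 FPKM in replicate 2. The log2 fold changes, p-values and q-values deposited by the authors come from their own comparison and were not used. Counts summed to between 29891192 and 47659515 per library, and replicates of one accession differed by at least 28.7 times the sampling variance (chi-square per degree of freedom), so each was counted as a separate sample.

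All 24829 genes entered edgeR 4.0.16 (R 4.3.3). Its expression filter left 24738, TMM factors were from 0.923 to 1.12, and the quasi-likelihood test with the accession as sole term was adjusted over all genes by the Benjamini-Hochberg method. Standard errors were derived from the log2 fold change and its F statistic. Log2 CPM used a prior count of 1. Implied exon lengths are counts divided by FPKM and total counts, summed over the libraries, and are approximate for the reasons given above. Alternatives were DESeq2 1.42.0, limma 3.58.1 on log2(FPKM + 1) or log2(FPKM + 0.1), other scaling factors, filters and fold limits, the replicate number as a block, and each library left out. The fit was tested on simulated data. Named are the candidate, its 20 nearest listed genes, the 5 genes of smallest p and the 2 of largest change per direction, the 5 most abundant, and those detected in one accession only. Other genes named were chosen after their values were seen. Members and rules were chosen with earlier results of these data known. No identifier matched the RefSeq table of assembly UCD10Xv1.1 (0 matches), so no names or coordinates were taken from it.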

Additional observations from a re-analysis of the deposited data

How the results depend on the processing

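The number of DEGs of the region was within 1.5 times the reported one under the alternatives tried, with 1 exception. Genes higher in B010 ran from 16 to 25 with a library left out, and genes higher in B003 from 15 to 26, where 15 was the number without B010 replicate 1. The log2 fold change of the candidate kept its sign in all alternatives. With a library left out it ran from -2.71 to -1.95, and by limma on log2(FPKM + 1) it was -1.22 with or without the filter and no longer called (limma adjusted p = 0.0533 and 0.0540). The adjusted p of the candidate ran from 0.000882 with DESeq2 to 0.110 without B010 replicate 1. The difference between the candidate and its neighbours ran from -1.06 to -0.21 with a library left out, and it was 1.95 against the 10 nearest genes, which is opposite in sign because other genes form the median. The log2 fold change of Capann_59Chr07g001520 was 0.42, ran from -0.10 (without B003 replicate 3) to 1.00 with a library left out, and was not called in any of these fits. Same-numbered libraries of the accessions did not deviate together (r = -0.00318, 0.0763 and 0.178 across genes, and not every library correlated best with its own number), so the numbers were not taken as pairs. In the fit with a replicate block, the region held 20 DEGs with more transcript in B010 and 24 with more in B003, the candidate had a log2 fold change of -2.02 (edgeR adjusted p = 0.0373), and its difference from the neighbours was -0.61 (exact sign-flip p = 0.25, the smallest that 3 pairs allow). Among the named genes, that block moved 3 across the threshold: Capann_59Chr07g001230 was no longer called (edgeR adjusted p = 0.0587), and Capann_59Chr07g001500 (log2 fold change 1.99, edgeR adjusted p = 0.0210) and Capann_59Chr07g001810 (log2 fold change -3.07, edgeR adjusted p = 0.0371) were called. Depth limits the genes with few counts, since 3 counts were up to 0.109 CPM.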
